A study of Homo sapiens with 8 samples.

Results

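The regions described here are H3K27ac peaks that lie far from any H3K9ac peak in MIA PaCa-2 cells, an established line from a human pancreatic carcinoma. They were chosen by position alone: the centre of the H3K27ac peak had to lie more than 5 kb from the centre of every peak in both H3K9ac lists. The rule kept 1638 of 15093 H3K27ac peaks in stromal spheroids, which is 10.9% (95% Clopper-Pearson interval 10.4 to 11.4%). In astromal spheroids it kept 1274 of 14489 peaks, which is 8.79% (8.34 to 9.27%). The 2912 peaks, of 29582 H3K27ac peaks and of 57049 peaks over both marks, are called distal peaks, and the remaining H3K27ac peaks are called other peaks. Intervals in the text cover counting error only.

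All cells grew as spheroids inside a hyaluronan hydrogel cross-linked with PEG diacrylate. In the stromal group the gel also held Gelin-S, a collagen-derived component, and the medium with 2% serum had been conditioned for 48 hours by immortalised myofibroblasts from resected human pancreatic tumours. In the astromal group the gel held no Gelin-S and the medium was DMEM with 2% serum. Gel and medium changed together, so their parts cannot be told apart. Each mark had 1 library per condition, so no difference between conditions has a replicate check and no p-value between conditions is given. Peaks of 1 library are not replicates.

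Acetylation of lysine 27 on histone H3 is placed by the acetyltransferase CBP and its close relative, and marks active promoters and active enhancers. Acetylation of lysine 9 is most concentrated near transcription starts of active genes. An enhancer is a stretch of DNA that can raise transcription of a gene some distance away. A region with H3K27ac and no H3K9ac nearby is treated here as a candidate enhancer. Position alone does not show which gene, if any, such a region acts on, and the genes named here are only the nearest ones.

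H3K27ac depth was 17190695 tags in the stromal library and 13453902 tags in the astromal library. The stromal H3K9ac list held 20326 peaks and the astromal one 7141, so the rule was set mostly by the stromal list. Against the H3K9ac list of its own condition alone, 1651 stromal peaks and 6133 astromal peaks were distal. Among markers of the cell line's labelled type, promoter H3K9ac within 1 kb of the start was listed for KRT8, KRT18 and KRT19 in the stromal list and for KRT18 in the astromal one, and for neither EPCAM nor CDH1. Of the mesenchymal markers VIM, ZEB1 and FN1, VIM had one, in the stromal list. Of 8 fibroblast markers, COL1A1, COL1A2 and ACTA2 had such a peak in the stromal list and 0 had one in the astromal list. DCN, LUM, PDGFRB, COL3A1 and FAP had none in either, and the part of other cells in the results was not tested.

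A small set of distal peaks did lie at transcription starts. Starts were placed in hg19 from the distances that the H3K9ac lists give, and 10 of 2495 distal sites (0.401%), at 9 genes, lay within 1 kb of one. These starts are those of the transcripts that the H3K9ac annotation names, and other transcripts of the same genes can start elsewhere. Of these genes, the RefSeq promoter table and a single curated transcript gave an unambiguous promoter for TNRC18, which encodes a large nuclear protein with trinucleotide-repeat tracts, and ABCA6, a member of the ABC transporter family. The 250 bases before each start are shown as the promoters nearest to these distal peaks. The astromal ABCA6 peak falls in its stretch, while the TNRC18 peaks lie on either side of theirs. PFDN1, a subunit of the prefoldin chaperone, is shown beside them because H3K9ac sits at its start and the second-ranked distal cluster is closest to it. All are from RefSeq on build GRCh38.p14, minus strand, 5′ to 3′, with capitals marking GGGCGG on either strand.
ABCA6, chr17:69141896-69142145: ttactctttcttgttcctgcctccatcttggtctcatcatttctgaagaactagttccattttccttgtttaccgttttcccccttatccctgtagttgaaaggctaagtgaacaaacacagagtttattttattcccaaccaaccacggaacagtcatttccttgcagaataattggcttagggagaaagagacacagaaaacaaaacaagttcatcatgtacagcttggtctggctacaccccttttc
TNRC18, chr7:5423835-5424084: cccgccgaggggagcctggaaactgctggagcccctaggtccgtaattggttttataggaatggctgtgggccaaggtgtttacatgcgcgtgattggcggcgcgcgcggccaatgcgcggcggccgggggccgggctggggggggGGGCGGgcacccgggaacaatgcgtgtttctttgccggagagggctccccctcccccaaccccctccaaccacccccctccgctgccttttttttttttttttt
PFDN1, chr5:140303102-140303351: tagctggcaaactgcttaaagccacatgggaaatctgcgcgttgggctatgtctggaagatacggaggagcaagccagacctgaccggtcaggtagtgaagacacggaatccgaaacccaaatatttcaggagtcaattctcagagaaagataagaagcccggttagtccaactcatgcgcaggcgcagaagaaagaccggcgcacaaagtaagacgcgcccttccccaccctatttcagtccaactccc

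The stretch before the ABCA6 start was 40.8% G or C, the one before the TNRC18 start 64.8%, and the one before the PFDN1 start 52.0%. GGGCGG, read on both strands, was found once in the TNRC18 stretch and in neither of the others, and 42.6% of 35116 RefSeq promoters of this length hold it. TGANTCA, whose reverse complement is the same, was found in none of these stretches, and 6.57% of promoters hold it. The motifs do not overlap in these sequences, and a match describes only letters.

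At ABCA6 the distal peak had 9.31 normalised tags in stromal spheroids, 417 bp inside the gene, and 9.66 in astromal spheroids, 100 bp before the start. Normalised tags are tags per 10000000 tags of the library throughout. The peaks did not overlap, so ABCA6 counts as a region of each list alone although the centres lie on either side of the same start. The nearest H3K9ac centre was 33290 bp from this start. At TNRC18 the stromal peak of 27.3 lay 648 bp inside the gene, and the astromal peaks of 31.2 and 29.0 lay 1824 and 2745 bp before the start. SLC2A3, which encodes the glucose transporter GLUT3, had 1 overlapping pair just inside its start, with 8.14 in stromal spheroids and 8.92 in astromal spheroids. ARHGAP32 likewise had 12.8 in stromal spheroids and 8.18 in astromal spheroids, at 93 and 207 bp inside the start.

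The other starts were held by 1 list or by both at different spots. ELF3, an epithelial ETS-family transcription factor, had an astromal peak of 7.43 at 435 bp before the start and no stromal peak. TRIM55, a RING-finger protein of muscle sarcomeres, had an astromal peak of 14.1 at 166 bp. ABR had a stromal peak of 5.82 at 145 bp. TMEM105 had a stromal peak of 6.40 at 801 bp beside an overlapping pair of 8.73 in stromal spheroids and 8.92 in astromal spheroids. RGMB, a BMP co-receptor, had an astromal peak of 17.8 at 990 bp and, farther in, a pair of 14.0 in stromal spheroids and 20.1 in astromal spheroids. A peak missing from a list had no deposited value there, so its tag number is unknown and not 0.

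**Figure D1:**
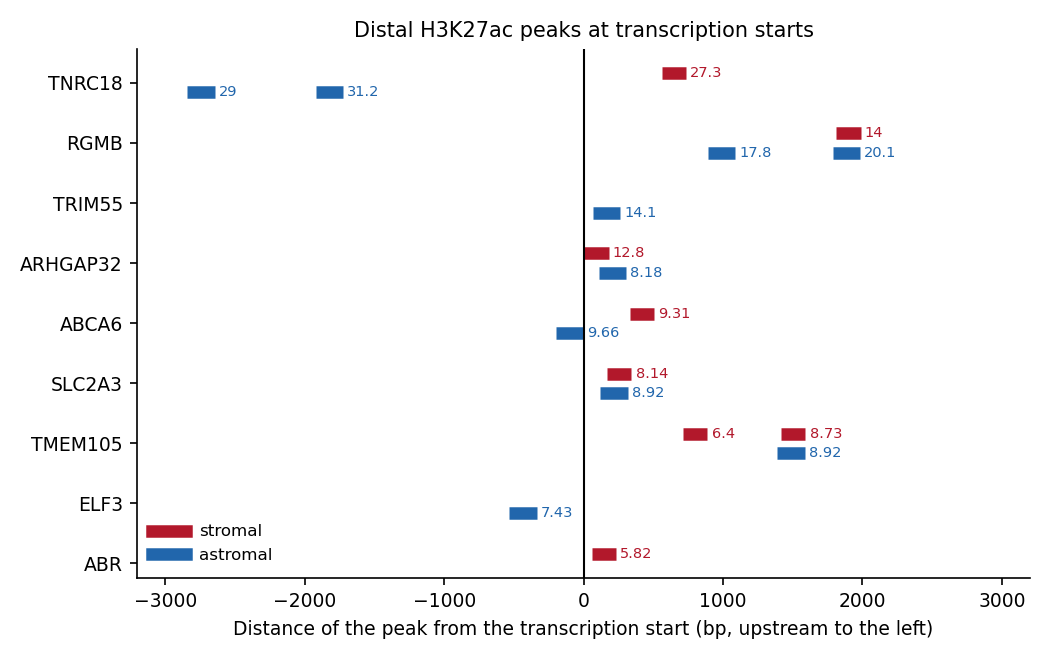
Distal H3K27ac peaks at transcription starts of 9 genes, drawn by distance from the start in bp with upstream to the left, stromal above and astromal below, each bar as wide as its peak and labelled with its normalised tags. SLC2A3 and ARHGAP32 have a peak of each list at 93 to 256 bp inside the start, and at ABCA6 the astromal peak lies before the start and the stromal one inside the gene.

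Away from starts, the distal peaks were far from H3K9ac and weak. The median distance from the nearest H3K9ac centre was 31000 bp in the stromal list and 30700 bp in the astromal list, and 18.4% of stromal and 18.9% of astromal distal peaks lay beyond 100 kb. The peaks nearest to the limit of 5 kb show how the rule cuts. Just outside it, and therefore distal, were a stromal peak 5007 bp from H3K9ac named for LOC100129316 (8.73 normalised tags), an astromal peak at 5020 bp named for SIPA1L3 (11.1) and a stromal peak at 5024 bp named for DLG4 (6.40). Just inside it were stromal peaks at 4986 bp named for MXRA7 (5.82), at 4977 bp named for SULT2B1 (9.31) and at 4965 bp named for NDUFV2 (21.5). The share of distal peaks per chromosome was lowest on chromosome 19, at 6.34% of stromal and 4.39% of astromal H3K27ac peaks, and highest on chromosome 13, at 20.1% of stromal and 17.2% of astromal peaks, for chromosomes with more than 1 peak.

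Distal peaks held 27773 of the stromal tags and 19696 of the astromal tags, which is 8.18% of all tags in stromal peaks and 6.74% of those in astromal peaks. The median was 8.73 normalised tags per distal peak (quartiles 6.98 and 11.1) against 11.6 per other peak (8.73 and 16.3) in the stromal list. In the astromal list it was 9.66 (8.18 and 12.6) for distal peaks and 13.4 (9.66 and 18.6) for other peaks. Distal peaks were thus lower by median than other peaks of the same list in both conditions, though the middle ranges overlapped. The rule did not use tag number, but peaks of 1 library share that library, so no test is given.

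Distal peaks also stood out less from their surroundings. Their median fold over the surrounding 10 kb was 5.49 in the stromal list, against 7.37 for other peaks, and 5.58 in the astromal list, against 7.49. The authors' limit for this fold was 4, and 36.8% of stromal distal peaks (34.4 to 39.1%) were below 5, against 16.4% of other peaks. In the astromal list 34.5% (31.9 to 37.2%) of distal peaks were, against 13.9% of other peaks. Median fold over input was 14.7 for stromal distal peaks and 18.8 for other ones, and 14.6 for astromal distal peaks and 26.8 for other ones.

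**Figure D2:**
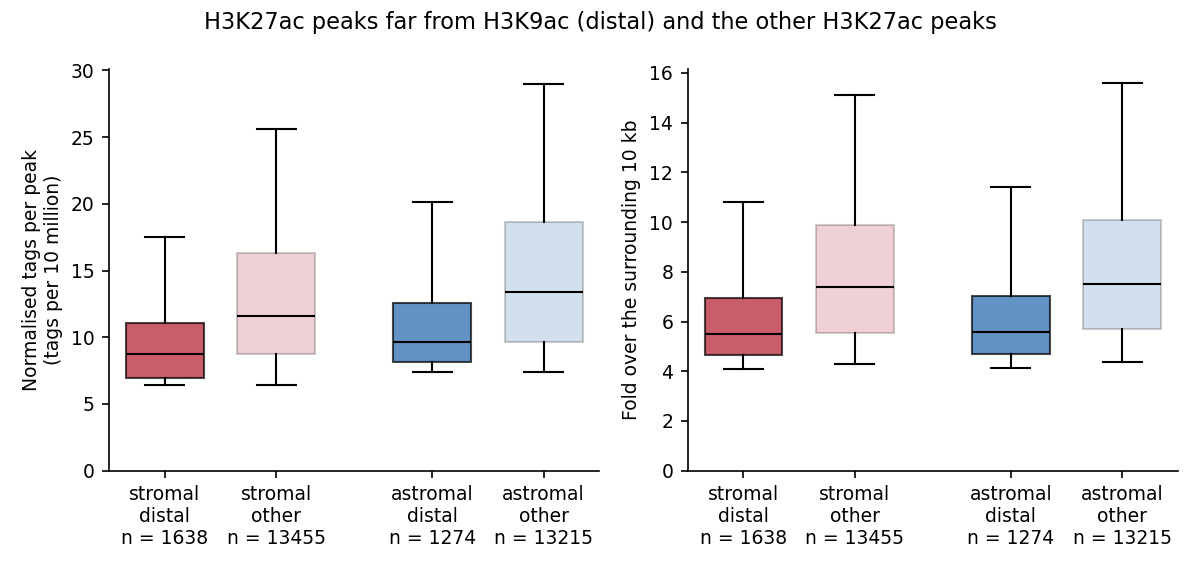
Normalised tags per peak (left) and fold over the surrounding 10 kb (right) for distal and other H3K27ac peaks of each list; boxes give the quartiles, the line the median and whiskers the 5th and 95th percentiles over peaks. Distal peaks have the lower median in both lists, 8.73 against 11.6 normalised tags in the stromal list and 9.66 against 13.4 in the astromal one.

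Distal peaks differed between the lists more often than other peaks did. Of stromal distal peaks, 416 of 1638 overlapped an astromal H3K27ac peak by at least 1 bp, which is 25.4% (23.3 to 27.6%), against 62.4% of other stromal peaks. Of astromal distal peaks, 417 of 1274 overlapped a stromal peak, which is 32.7% (30.2 to 35.4%), against 63.5% of other astromal peaks. With only the H3K9ac list of the same condition as the measure of distance, the astromal share was 52.4% of 6133 peaks, and the stromal share 25.6% of 1651. Over all H3K27ac peaks the shares were 58.4% of the stromal list and 60.8% of the astromal list. Put the other way, 1222 stromal and 857 astromal distal peaks were in 1 list only, where 41.6% of all stromal and 39.2% of all astromal H3K27ac peaks were.

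Distal peaks also overlapped the other list less often than other peaks of like tag number. These groups of like tag number were not matched for local fold, which was lower by median for distal peaks, and its part was not tested. At 8 to 12 tags, 11.8% of stromal distal peaks and 39.8% of other stromal peaks overlapped the other list. At 30 tags or more, 47.6% (36.6 to 58.8%) of stromal distal peaks did, against 77.5% of other ones. In the astromal list the share was 22.8% of distal and 41.5% of other peaks at 8 to 12 tags, and 44.9% of distal and 64.4% of other peaks at 16 to 19 tags. It was 32.6% (19.5 to 48.0%) for the 46 astromal distal peaks of 30 tags or more, against 80.5% of other ones. The interval of these strongest astromal distal peaks overlaps that of peaks with 13 to 15 tags, of which 37.9% (32.4 to 43.6%) were in both lists.

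**Figure D3:**
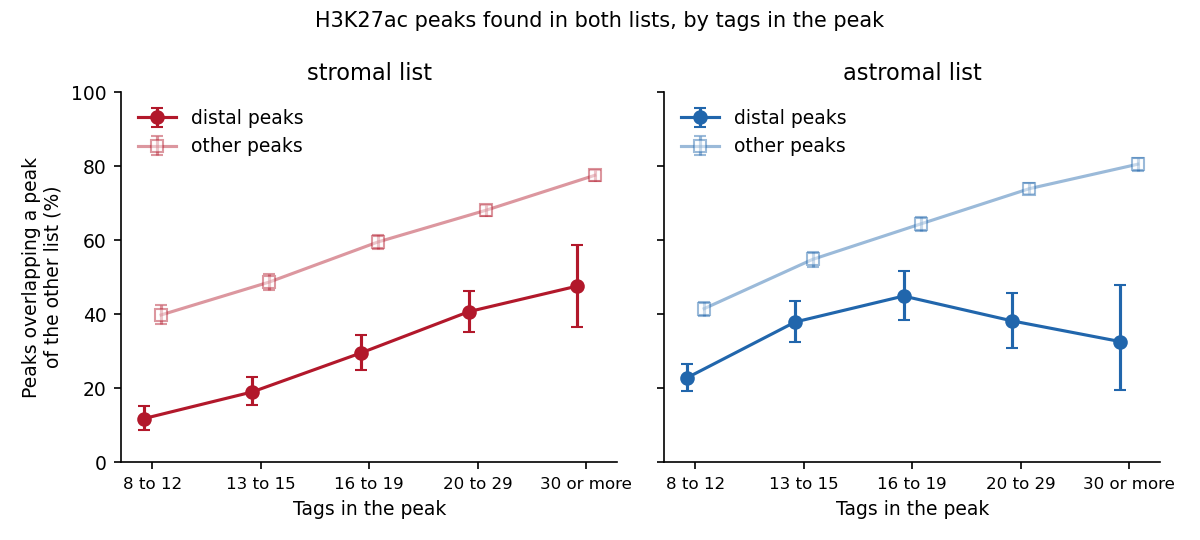
Share of H3K27ac peaks that overlap a peak of the other list by at least 1 bp, by number of tags in the peak, for distal peaks (filled circles) and other peaks (open squares); bars are 95% Clopper-Pearson intervals. Distal peaks lie below other peaks at every tag number in both lists, from 11.8% against 39.8% to 47.6% against 77.5% in the stromal list.

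Some distal peaks without an overlap had a close neighbour in the other list. Of distal peaks in 1 list only, 30.2% of the stromal and 35.8% of the astromal ones had a peak of the other list centred within 1 kb. For other peaks in 1 list only these shares were 72.2% of the stromal and 66.0% of the astromal ones. Within 12 kb they were 48.4% of stromal and 54.1% of astromal distal peaks, and 85.1% of stromal and 79.5% of astromal other peaks. Peaks had a fixed width of 175 bp in the stromal list and 197 bp in the astromal list, so overlap by 1 bp already asks for nearly the same position. With centres within 500 bp counted as shared, 38.8% of stromal and 48.0% of astromal distal peaks were in both lists.

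Strong peaks of 1 list were led by the AMBRA1 region in stromal spheroids, with 35.5 normalised tags at chr11:46575271-46575445. AMBRA1 is a regulator of autophagy and of cyclin D turnover. The astromal list had its own peak there of 42.4 at chr11:46576424-46576620, also among its highest. The centres lay 1164 bp apart, so this region had a peak of high tag number in both lists. Local folds of these AMBRA1 peaks were 4.12 in the stromal and 4.11 in the astromal list, just above the authors' limit of 4. The next stromal peak, 27.9 at chr12:12879422-12879596, lay 8871 bp from H3K9ac at CDKN1B, which encodes the cell-cycle inhibitor p27, and the nearest astromal peak was 30075 bp away. TNRC18 followed with 27.3, as given above. Peaks of 26.2 lay near DFNA5, the gene of gasdermin E, and near MKKS, a chaperonin-like protein of the primary cilium base. A peak of 23.3 near the RNA gene LINC01204 had an astromal peak centred 645 bp away. The nearest astromal peaks to the DFNA5 and MKKS peaks were centred 14418 and 14830 bp away. Local folds of the stromal peaks named here ran from 4.06 near DFNA5 to 5.3 near MKKS.

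The strongest astromal peak of 1 list had 73.6 normalised tags at chr5:71146703-71146899, 258165 bp from H3K9ac at MAP1B, a microtubule-associated protein of neurons. It stood 170-fold over its surroundings and had 5.7 input tags, against a median of 0.800 input tags over astromal distal peaks. The peak near NLE1, a ribosome biogenesis factor, was alike, with 38.7 normalised tags, a local fold of 52.8 and 6.6 input tags. The part of the input signal in these peaks was not tested. Local folds were 4.24 to 4.53 at the next peaks named. Normalised tags of these peaks were 66.9 near ATF7IP, a partner of the histone methyltransferase SETDB1, and 44.6 near IFIT2, an interferon-induced gene. The peak near EMP1, an epithelial membrane protein, had 39.4 normalised tags. The nearest stromal peaks lay 17316, 17990 and 51755 bp from the ATF7IP, IFIT2 and EMP1 peaks.

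Among strong distal peaks of 1 list, many only just passed the local limit. Of 44 such stromal peaks with at least 30 tags, 24 had a local fold below 5 (54.5%), and of 31 such astromal peaks 20 had (64.5%). For other peaks of 1 list at this tag number the shares were 34.2% in the stromal and 29.3% in the astromal list. An astromal peak was centred within 5 kb of 22 of the 44 stromal ones, and a stromal peak within 5 kb of 5 of the 31 astromal ones. At the far end, 8 stromal and 9 astromal distal peaks had a local fold of at least 20, of which 3 stromal and 2 astromal ones were in both lists.

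At the 416 distal regions with a peak in both lists, H3K27ac was close in the libraries. The median was 10.5 normalised tags in stromal spheroids and 11.1 in astromal spheroids. The median log2 ratio, stromal over astromal, was -0.115 (quartiles -0.354 and 0.172), and 40.9% of regions were above 0. Over all 8814 shared H3K27ac peaks the median was -0.181 and 31.4% were above 0. Both medians carry the difference in peak width, which alone gives -0.171 where tags are spread evenly. Per bp of width the distal median was 0.06, and with tags scaled to the sum over all shared peaks it was 0.07, so its sign depends on the scale.

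A region was called when its ratio, less the median of all shared peaks, reached 2-fold and its exact interval on the tags excluded 0. By this rule 3 distal regions were higher and 0 were lower in stromal spheroids, against 0.465% of all shared peaks higher and 0.953% lower. The 3 are 0.721% of the distal regions, where 1.42% of all shared peaks were called in either direction. A share so near the background is not a result about the distal regions. They were named after their values were seen, and compare libraries and not conditions. A region near TACC2, a centrosome-linked coiled-coil protein, had 17.5 in stromal spheroids and 8.92 in astromal spheroids, a centred log2 ratio of 1.15 (0.14 to 2.25). One 1074065 bp from H3K9ac at NMD3, a ribosome export factor, had 16.3 in stromal and 8.92 in astromal spheroids. One named for JADE1, a subunit of a histone acetyltransferase complex, had 15.1 in stromal and 8.18 in astromal spheroids. The start nearest to the latter by position belonged to PGRMC2. Centred log2 ratios of the NMD3 and JADE1 regions were 1.05 (0.03 to 2.16) and 1.07 (0.0018 to 2.23). Without centring, 0 regions were higher and 2 were lower, and centred on the distal median 1 was higher, so the calls turned on the scale. The matching shares over all shared peaks were not computed on these other scales.

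**Figure D4:**
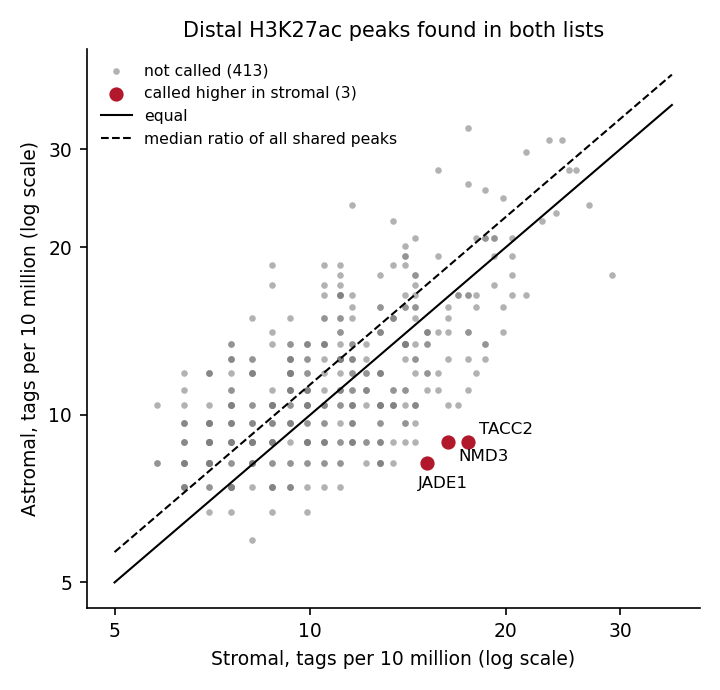
Normalised tags at the 416 distal regions with a peak in both lists, stromal on the horizontal and astromal on the vertical log axis; the solid line marks equal values and the dashed line the median ratio of all 8814 shared H3K27ac peaks. Points lie around the lines, and the regions named for TACC2, NMD3 and JADE1, in red, have 15.1 to 17.5 in stromal spheroids and 8.18 to 8.92 in astromal spheroids.

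Among shared distal regions with at least 20 tags in each library, 63 in number, no call was made, and the ends of the range are given as values. CACHD1, an auxiliary subunit of calcium channels, was the nearest gene of the highest, with 29.1 in stromal spheroids and 17.8 in astromal spheroids and a centred log2 ratio of 0.89 (0.16 to 1.65). TOX2 followed with 21.5 in stromal and 16.4 in astromal spheroids, at 0.57. SETD5, a SET-domain chromatin protein, gave both the third highest and the lowest ratio: 1 site had 19.8 in stromal and 15.6 in astromal spheroids, and its neighbour in the same cluster 11.6 in stromal and 23.8 in astromal spheroids. The ratios of those sites were 0.52 (-0.30 to 1.38) and -0.86 (-1.73 to -0.0004), on opposite sides of 0, but the first interval holds 0. At the first site the peaks of the lists overlapped by only 23 bp. Near TXLNG the values were 17.5 in stromal and 32.7 in astromal spheroids (-0.72), and near XRCC5, the Ku subunit of DNA end joining, 15.7 in stromal and 27.5 in astromal spheroids (-0.63). The rest of the 12 ran from 0.38 at LINC01358 to 0.50 at METTL4 among the high ones, and from -0.55 at RFC3 to -0.34 at LOC100289230 among the low ones, with intervals that hold 0.

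Distal sites were grouped by how close they lay to one another. Merging overlapping peaks of both lists gave 2496 sites, and joining sites with centres up to 12 kb apart gave 599 clusters of 2 sites or more, with 1419 sites (56.9%), beside 1077 single sites. Most clusters were short: their median span was 989 bp (quartiles 742 and 1550 bp) and 81.3% spanned under 2 kb. No cluster held more than 6 sites, and 171 held at least 3. Both lists had a peak in 474 of the 599 clusters (79.1%), the stromal list alone in 91 (15.2%) and the astromal list alone in 34 (5.68%). In 238 of the 474 the lists shared a cluster without sharing a site. Whether sites of a cluster are separate regions, or the same region called at shifted positions, was not tested. No matching shares are given for other H3K27ac peaks, so these shares describe the distal sites without a background. Of single sites, 140 were in both lists, 545 were stromal only and 392 were astromal only.

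Among clusters of at least 3 sites, ranked by summed tags averaged over the libraries, the leading one was at chr4:129438595-129449772. It had 6 sites and lay 25049 bp from an H3K9ac peak that the list names for JADE1. That H3K9ac peak is itself intergenic, and the nearest start by position belongs to PGRMC2, a haem-binding membrane protein. Its 4 stromal peaks summed to 47.12 normalised tags and ranged over 8.73 to 14.5. Its 5 astromal peaks summed to 56.52 and ranged over 9.66 to 13.4, and the lists shared 3 sites. No single site led it, and the levels in the lists overlapped.

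The next clusters were more compact. The PFDN1 cluster, at chr5:139640784-139641841 and 40548 bp from H3K9ac at the PFDN1 start, had stromal peaks of 24.4 and 18.6 and astromal peaks of 31.2 and 19.3. Its first peaks overlapped, with local folds of 10.0 in the stromal and 10.7 in the astromal list, high for distal peaks. Near SPP2, which encodes a secreted phosphoprotein of bone and liver, 2 stromal peaks summed to 33.1 and 4 astromal ones to 59.5 at chr2:235044607-235056904. The TNRC18 cluster shared no site between lists, with 27.3 in stromal spheroids and 60.2 in astromal spheroids. AIMP2 is a scaffold of the aminoacyl-tRNA synthetase complex, and its cluster at chr7:6055376-6066113 had sums of 46.0 in stromal and 38.6 in astromal spheroids, from 6157 bp beyond H3K9ac at its promoter.

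The cluster named for VGLL4, a TEAD-binding antagonist of YAP, lay inside that gene by the extent of its H3K9ac peaks, at chr3:11632641-11643270. It had 4 stromal peaks with a sum of 46.0 and 2 astromal peaks with a sum of 29.7, both of the astromal sites being shared. The RUNX1 cluster differed most in sums: the stromal list had 1 peak of 6.40 and the astromal list 3 peaks of 23.0, 25.3 and 18.6, at chr21:36578731-36605797. RUNX1 encodes a Runt-domain transcription factor, and the cluster lay 170669 bp from its rebuilt start and 22838 bp from an intergenic H3K9ac peak. None of the 4 sites was shared, the astromal local folds were 4.32 to 5.20, and 1 astromal peak had 6.6 input tags. Of the last 3 clusters, each had more peaks in the stromal list: NEBL-AS1 had 5 stromal peaks summing to 48.97 and 2 astromal ones summing to 22.33. TOX2 had 3 stromal peaks summing to 41.9 and 2 astromal ones summing to 25.3, and IL1R1, the interleukin-1 receptor, 3 summing to 43.1 and 2 summing to 23.8. Sums over peaks called apart in each library move with how many were called, and the means per peak ran the same way at IL1R1 (14.4 stromal, 11.9 astromal) and TOX2 (14.0 stromal, 12.7 astromal). They ran against the sums at NEBL-AS1 (9.79 stromal, 11.2 astromal), VGLL4 (11.5 stromal, 14.9 astromal), SPP2 (16.6 stromal, 14.9 astromal) and JADE1 (11.8 stromal, 11.3 astromal).

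**Figure D5:**
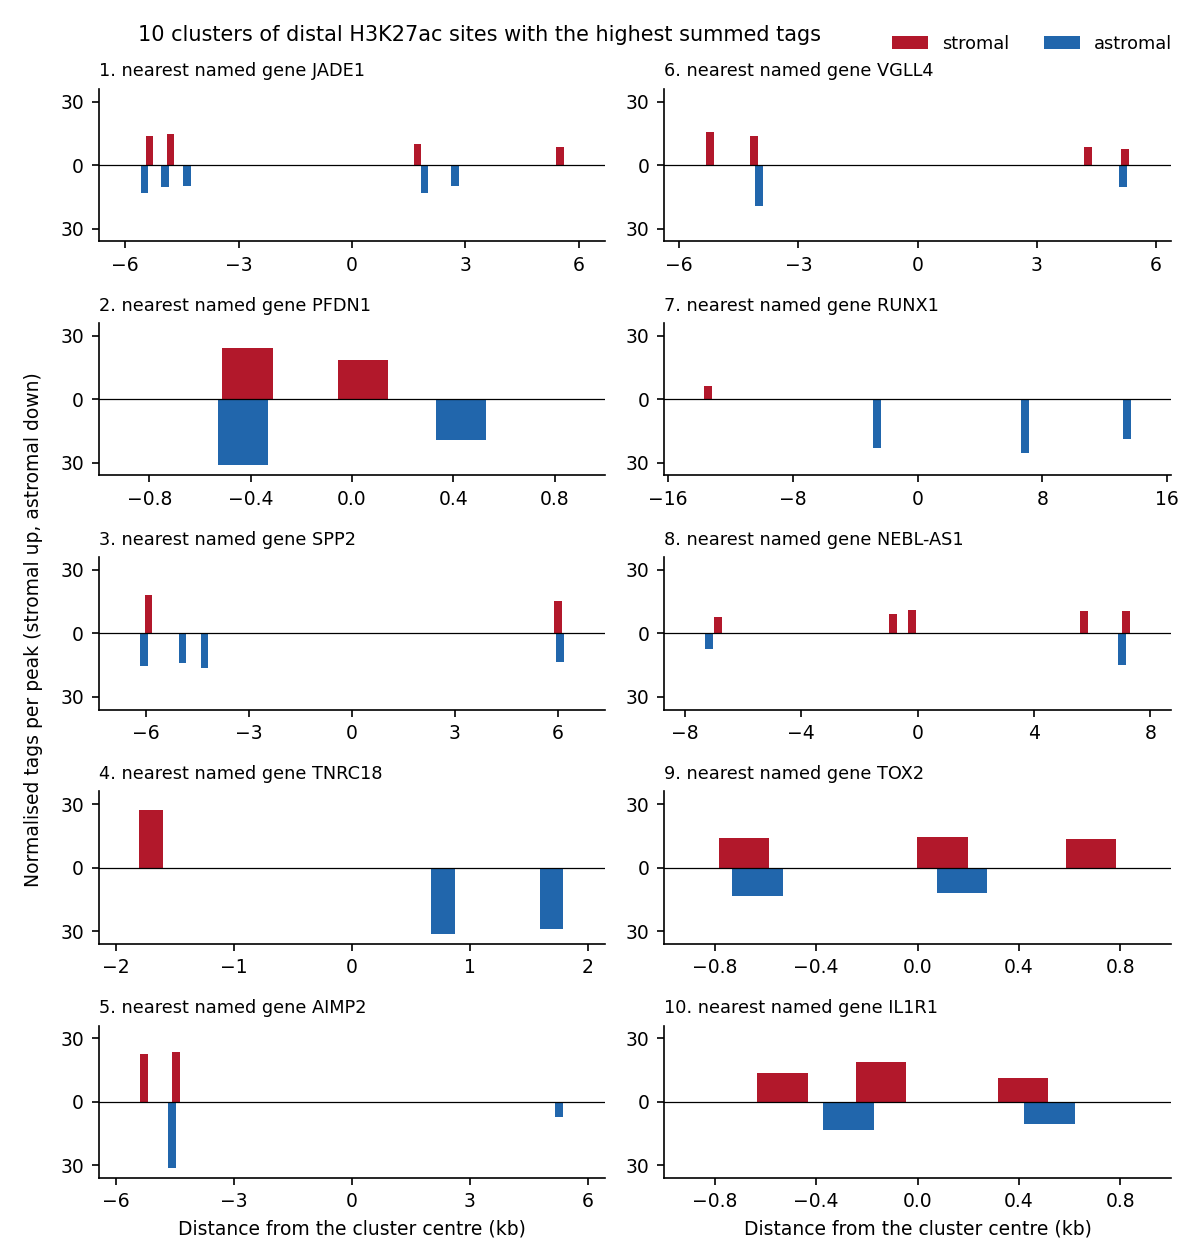
Normalised tags of each peak in the 10 leading clusters, stromal upward and astromal downward, by distance from the cluster's centre in kb; the horizontal scale differs between panels and bars are not drawn to peak width. Several panels show stromal and astromal bars at the same spots, while the RUNX1 panel has 3 astromal bars of 18.6 to 25.3 and a single stromal bar of 6.40 elsewhere.

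The nearest H3K9ac peak named 1297 genes for the distal sites, and 684 of them had 1 site. For 82.7% of sites the named gene was protein-coding, for 56.7% the H3K9ac peak lay within 1 kb of a start, and for 82.8% it came from the stromal list. Naming by the nearest rebuilt start gave the same gene at 87.9% of sites. At most 12 sites went to 1 gene. TOX2, a high-mobility-group transcription factor, had 12 sites with 8 stromal peaks summing to 105.33 and 8 astromal peaks summing to 89.28. JADE1 had 12 sites, with 9 stromal peaks summing to 100.01 and 7 astromal peaks summing to 74.36. At the leading cluster, which is named for JADE1, the nearest start by position was that of PGRMC2. RFC3, a subunit of the clamp loader of DNA replication, had 12 with 11 stromal peaks summing to 114.16 and 5 astromal peaks summing to 58.69. Per peak the RFC3 means were 10.4 in stromal and 11.7 in astromal spheroids, so the larger stromal sum goes with the number of peaks called. RUNX1 had 11 sites, and there the astromal sum was higher, with 47.74 in stromal spheroids and 106.2 in astromal spheroids from 6 peaks in each list.

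Of 280 genes with at least 3 distal sites, 258 had peaks of both lists, 19 of the stromal list only and 3 of the astromal list only. The stromal-only genes included IRS1, the adaptor of the insulin receptor, whose 3 peaks summed to 33.75. They also included IER3, a stress-induced early gene, with 31.93, and ID3, an inhibitor of basic helix-loop-helix factors, with 27.37. The IER3 sites lay 25248 to 26293 bp and the ID3 sites 8189 to 9159 bp from H3K9ac. Whether the sites of 1 gene are separate regions was not tested. WDR70 had the most stromal-only peaks, 5, with a sum of 44.22, at 254717 to 326309 bp from H3K9ac. The astromal-only genes were IFI27L2 (43.8), the neurotensin receptor gene NTSR1 (29.74) and TNS3, a focal adhesion protein (26.02). Their sites lay 469184 to 482534, 7881 to 31846 and 7493 to 43715 bp from H3K9ac, in that order. Of the 19 stromal-only genes, 7 had promoter H3K9ac in the stromal list alone, 2 in the astromal list alone (IRS1 and MYO9B), 7 in both and 3 in neither. Of the 3 astromal-only genes, IFI27L2 and NTSR1 had it in the stromal list alone and TNS3 in both. The counts of genes stand beside 1638 stromal and 1274 astromal distal peaks and were not tested. No matching share over genes of all H3K27ac peaks is given, so these counts describe the distal sites without a background.

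Promoter H3K9ac of the nearest genes had overlapping shares in the classes of distal peaks. Among 381 protein-coding genes with distal peaks in the stromal list only, 42.3% (37.2 to 47.4%) had promoter H3K9ac in the stromal list alone. Among 234 genes with distal peaks in the astromal list only the share was 43.6% (37.1 to 50.2%), and among 476 genes with distal peaks in both lists 44.5% (40.0 to 49.1%). Over all 10770 protein-coding genes named in the H3K9ac lists it was 46.7%. Promoter H3K9ac in the astromal list alone was rare, at 1.84%, 1.71% and 1.68% of those classes and 0.882% of all.

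Of 12186 genes named in the H3K9ac lists, 10.6% had at least 1 distal site, and 10 lists of genes related to the tumour and its culture are given beside that share. The room around each gene was not taken into account, so the counts are descriptions. A nearest gene could be far from its sites. Sites lay 8166 to 8846 bp from H3K9ac for CLDN4, but 101774 to 103275 bp for WWTR1 and 128587 to 232564 bp for ITGB1. Where a gene had more than 1 peak in a list, its value is the sum over these peaks, which moves with how many were called. Among transcription factors and chromatin proteins of enhancers, 10 of 25 had a site. RUNX1 led, then ETS1, an ETS-family factor downstream of RAS, with 5 stromal peaks summing to 54.18 and 3 astromal ones summing to 35.68, or 10.8 and 11.9 per stromal and astromal peak.

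Genes of the AP-1 family and immediate early genes had a site in 8 of 20. MAFF, a small Maf protein, had 3 stromal peaks summing to 31.46 and 3 astromal ones summing to 26.02. CYR61, a secreted matricellular target of YAP, had 2 stromal peaks with a mean of 11.6 and a sum of 23.2, and 1 astromal peak of 15.6. KLF4, a Krüppel-like factor, had 2 peaks in each list, summing to 22.13 in stromal and 16.35 in astromal spheroids. Its sites lay 19022 to 297608 bp from H3K9ac. Of RAS, MAPK and feedback genes, 3 of 20 had one. The leading one was SPRY1, an inhibitor of receptor tyrosine kinase signalling, with 3 stromal peaks summing to 26.18 and 4 astromal ones summing to 43.06. PHLDA1 had 1 stromal peak of 8.14 and 2 astromal ones summing to 28.28, and SPRY2 had 1 astromal peak of 14.1.

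Growth factor receptors and ligands had a site in 9 of 19. PDGFB, a platelet-derived growth factor chain, led with 3 stromal peaks summing to 30.22 and 4 astromal ones summing to 33.45, or 10.1 per stromal and 8.36 per astromal peak, ahead of IRS1. PDGFA, its partner chain, had 1 stromal peak of 9.31 and 2 astromal ones with a mean of 8.92. Of TGF-beta, SMAD, TEAD and YAP genes, 6 of 23 had one, with SMAD3, a signal transducer of TGF-beta, with 3 stromal peaks of mean 7.37 and 2 astromal ones of mean 7.43. ID3 followed, then WWTR1, the YAP relative TAZ, with astromal peaks only, summing to 19.32. Of epithelial and ductal identity genes, 5 of 9 had one, led by the tight junction gene CLDN4 with 2 stromal peaks summing to 27.3 (mean 13.7) and 1 astromal peak of 11.9. The keratin KRT19 had 2 peaks in each list, summing to 14.54 in stromal and 17.1 in astromal spheroids, and SOX9, a ductal transcription factor, had 1 stromal peak of 8.14.

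Glucose, glutamine and lipid metabolism genes had a site in 8 of 28. SLC16A3, the lactate exporter MCT4, had 1 stromal peak of 9.31 and 2 astromal ones with a mean of 9.66, and SREBF1, a regulator of lipid synthesis, had astromal peaks only, summing to 25.23. PFKP, a phosphofructokinase, had 8.73 in stromal and 8.92 in astromal spheroids. Of NF-kappaB, cytokine and interferon genes 4 of 18 had one, among them SOCS3, a feedback inhibitor of STAT3 signalling, with 2 peaks in each list summing to 26.2 in stromal and 28.3 in astromal spheroids. LIF, a cytokine of the interleukin-6 family, had stromal peaks only (13.38), and IRF1 1 astromal peak of 8.18.

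In the adhesion, matrix and RAS lists, 18.8%, 13.3% and 15.0% of genes had a site, beside 10.6% of all named genes. With 2 or 3 genes behind each share, the lists are not ranked. Of hyaluronan receptors, integrins and adhesion genes, 3 of 16 had a site, with VCL, the focal adhesion protein vinculin, having 2 peaks in each list that summed to 19.2 in stromal and 20.8 in astromal spheroids. ITGB1, the integrin beta-1 chain, had 6.98 in stromal and 9.66 in astromal spheroids, and PXN 1 astromal peak of 8.92. Of mesenchymal and matrix genes, 2 of 15 had one: COL4A1, a basement membrane collagen, with 2 stromal peaks of mean 7.86 and 1 astromal peak of 10.4, and LAMC1, a laminin chain, with 1 astromal peak of 7.43.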

How the data were processed

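Chromatin of MIA PaCa-2 spheroids was immunoprecipitated for H3K27ac and H3K9ac, with 1 library per mark and condition. The 4 input libraries enter only through the authors' peak lists, which for H3K27ac also give input tags and folds over input. The submitters' processing notes name CASAVA 1.8.2, Bowtie, HOMER and build hg19. H3K27ac peaks of fixed width were called per library with HOMER at an FDR of 0.001, at least 4-fold over input and over the surrounding 10 kb at a Poisson p-value of 1e-04, per the file headers. Both H3K9ac lists carry HOMER annotation, per the file headers, while the settings of their peak calls are not given in the sources used.

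The main signal is the deposited tag count per H3K27ac peak, which the authors normalised to 10000000 tags; the deposited library totals turned it back into counts of tags, within 0.086 tag of whole numbers. The deposited raw tag counts of the astromal list differed from these in 65 distal peaks, by at most 2. Folds over the local region and over input, the findPeaks score and the fraction of tags in focus are the authors' own values. They were used to describe, filter or rank peaks within a list. The lowest deposited input signals, 0.5 stromal and 0.4 astromal, stand for 0 tags.

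Distances between centres, overlaps of at least 1 bp, clusters and medians were computed with Python 3.11.15, pandas 2.3.3, numpy 2.4.6 and scipy 1.17.1; overlaps were checked with bedtools 2.31.1, and calls, distances and overlaps were tested on simulated data. Shares carry 95% Clopper-Pearson intervals; the interval of a ratio is the exact binomial one on the tags. Named regions are the 10 clusters of at least 3 sites with the highest summed tags, the 6 strongest peaks of each list alone, the 6 highest and 6 lowest ratios at 20 tags or more in each library, the peaks next to the 5 kb limit and up to 3 genes per list. Members and gene lists were chosen with earlier results of these data known. Alternative distances, peak thresholds, overlap rules, scalings and gaps were tried. Sequences of the distal peaks are not shown because no hg19 sequence was used here; promoters come from RefSeq, whose coordinates are not those of the peaks. A gene that the naming rule picks is not reported here.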

Additional observations from a re-analysis of the deposited data

How the results depend on the processing

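No paired analysis was possible because each mark had 1 library per condition, so no replicate numbers are shared, and no replicate could be left out. Depth limits the text: the median distal peak has 15 tags in the stromal and 13 in the astromal list. The called regions had 26 to 30 stromal tags but only 11 to 12 astromal tags. Of 93 alternative values under 20 settings, 60 kept their direction and stayed within 1.5 times the value given (counts) or within its 95% interval (shares and medians); among them the median log2 ratio reached -0.0725.

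More than 20 kb from H3K9ac, 1073 stromal and 815 astromal peaks were left; against the H3K9ac list of the same condition 6133 astromal peaks were distal, and 52.4% of them were in both lists. At a fold over input of at least 8 the shared part was 18.6% of stromal and 29.0% of astromal distal peaks, with 1 region called higher. Shared parts under the alternative settings were computed for distal peaks only, so they have no matching share of other peaks beside them. At a local fold of at least 6, 629 stromal and 529 astromal distal peaks were left, 22.3% and 26.5% of them shared. With at least 20 tags asked of the peaks of each list, 408 stromal and 219 astromal ones were left, 15.4% and 28.8% of them shared, with a median log2 ratio of -0.156 and 0 higher. Overlap of at least 0.5 of the shorter peak gave 17.5% of stromal and 22.5% of astromal distal peaks shared. Centres within 500 bp gave 38.8% of stromal and 48.0% of astromal distal peaks, with 5 regions higher.

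The median log2 ratio changed sign per bp of width (0.0554) and with tags scaled to the sum over all shared peaks (0.0738). By the findPeaks score 1 region was higher, and so it was when centred on the shared distal median. Without centring 0 were higher and 2 lower, and at 1.5-fold 4 were higher and 2 lower. The share called over all shared peaks was computed at the main setting only, so the counts called under other settings have no background. Median distances to the nearest rebuilt start were 46400 bp in the stromal and 49200 bp in the astromal list. The median level of distal over other stromal peaks, 0.753 by normalised tags, was 0.750 by score and 0.716 at a fold over input of at least 8. The cause of these shifts was not tested.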
